A study of Mus musculus with 56 samples.

Results

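Thymic epithelial cells (TECs) supply developing T cells with a small group of secreted or membrane-held growth factors, and 5 genes of this kind were followed here: *Il7*, *Kitl*, *Flt3l*, *Il15* and *Tslp*. The 5 genes were listed by symbol, and each was found by its Ensembl identifier among the 50600 genes of the deposited tables. RNA was measured in 56 samples, 28 of cortical TECs (cTECs) and 28 of medullary TECs (mTECs), each sorted from the thymus of 1 mouse. The mothers were B6.SJL females mated with BALB/cJ males, and their pups were removed at birth. The groups were age-matched non-pregnant females (NPC), females at day 18 of gestation (D-2), and females on the day of parturition (D0) and on 13 later days up to D28. Each cell type had 3 samples of NPC, D-2 and D0 and 3 on days 3, 6 and 12, whereas the remaining 10 time points were single samples without a replicate error. The labels give no age of the mice. The 18 samples from D0 to D12 were treated as the early phase of regeneration and the 4 from D16 to D28 as the late phase. Both cell types were EpCAM+ and CD45-, with cTECs taken as UEA1- and mTECs as UEA1+, so the sort sets them apart by 1 lectin.

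Interleukin 7 signals through a receptor made of its own alpha chain and the common gamma chain, and in the thymus it keeps early thymocytes alive and dividing. KIT ligand (stem cell factor) and FLT3 ligand bind receptor tyrosine kinases on the earliest progenitors that enter the thymus. Interleukin 15 is presented to neighbouring cells on its own alpha receptor and supports NK, NKT and other innate-like lymphocytes. Thymic stromal lymphopoietin binds CRLF2 paired with the IL-7 receptor alpha chain, and is known in the thymus as a product of medullary epithelium. The IL-7, IL-15 and TSLP receptors pass their signals through JAK kinases and STAT proteins, whose feedback inhibitors belong to the SOCS family.

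On GRCm38, *Il7* (ENSMUSG00000040329.14) lies on the minus strand of chromosome 3 from 7569994 to 7613760. *Kitl* (ENSMUSG00000019966.18) lies on the plus strand of chromosome 10 from 100015630 to 100100416. *Flt3l* (ENSMUSG00000110206.1) lies on the minus strand of chromosome 7 from 45129788 to 45136432, where the annotated gene *Gm45713* shares 6444 of its bases on the same strand. Reads of *Flt3l* and *Gm45713* may therefore be split between them by the quantification, and the *Flt3l* level is uncertain to that extent. *Il15* (ENSMUSG00000031712.10) lies on the minus strand of chromosome 8 from 82331632 to 82403222, and *Tslp* (ENSMUSG00000024379.3) on the plus strand of chromosome 18 from 32815383 to 32819797.

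*Kitl* is made in a form that is cut from the cell surface and in a form that stays on the membrane, and the forms differ by 1 coding exon that carries the main cleavage site. This exon is shown because the levels below add both forms together. It is exon 6 of the 10 exons of Kitl-202, has 84 bases, lies at chr10:100080857-100080940 (GRCm38, plus strand), and is absent from Kitl-201. No capitals are used, since no shorter stretch was examined.

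Kitl exon 6: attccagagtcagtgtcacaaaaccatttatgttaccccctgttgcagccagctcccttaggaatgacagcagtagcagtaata

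Levels are given per transcript length as the deposited FPKM, and without length as CPM, the expected count of the gene scaled to a total of 1000000 expected counts in each sample. Levels are given as mean ± SD, and log2 values from limma-voom with their standard error, in brackets or after ±. The samples held between 4561208 and 108547384 expected counts. In 5 libraries over 4% of steadily expressed genes were at 0 counts, namely cTEC D3 replicate 2 (17.7%), cTEC D20 (4.56%), mTEC D0 replicate 2 (4.51%) and mTEC D3 replicates 1 (12%) and 2 (4.48%). Replicate numbers are those in the sample titles. Summed mTEC markers were from 3679 to 8133 FPKM in cTECs and from 10510 to 19920 in mTECs, without overlap, whereas summed cTEC markers were from 1201 to 12250 FPKM in cTECs and from 491.1 to 4724 in mTECs. A gene was called where limma-voom gave an adjusted p of 0.01 or less together with a fold-change of 2 or more. A missing call at 3 against 3 samples does not show that a gene was stable.

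Over the 28 samples of each cell type, *Il7* was the highest of the 5 genes on the FPKM scale, with 92.9 ± 20.4 in cTECs and 114 ± 49.3 in mTECs (mean ± SD, n = 28). In cTECs *Kitl* followed with 28.9 ± 16.4 FPKM, then *Flt3l* with 20.5 ± 8.14, *Il15* with 13.3 ± 7.42 and *Tslp* with 0.13 ± 0.256. In mTECs the order after *Il7* was *Il15* with 18.4 ± 10.8 FPKM, *Flt3l* with 12.3 ± 4.70, *Kitl* with 6.90 ± 4.43 and *Tslp* with 1.61 ± 1.62. In FPKM *Kitl* was thus next to *Il7* in cTECs and next to last in mTECs, and *Tslp* was last in both. In CPM *Kitl* came after *Il7* in mTECs too, with 17.5 ± 6.69 against 12.6 ± 4.33 for *Flt3l* and 11.7 ± 5.15 for *Il15*.

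**Figure D1:**
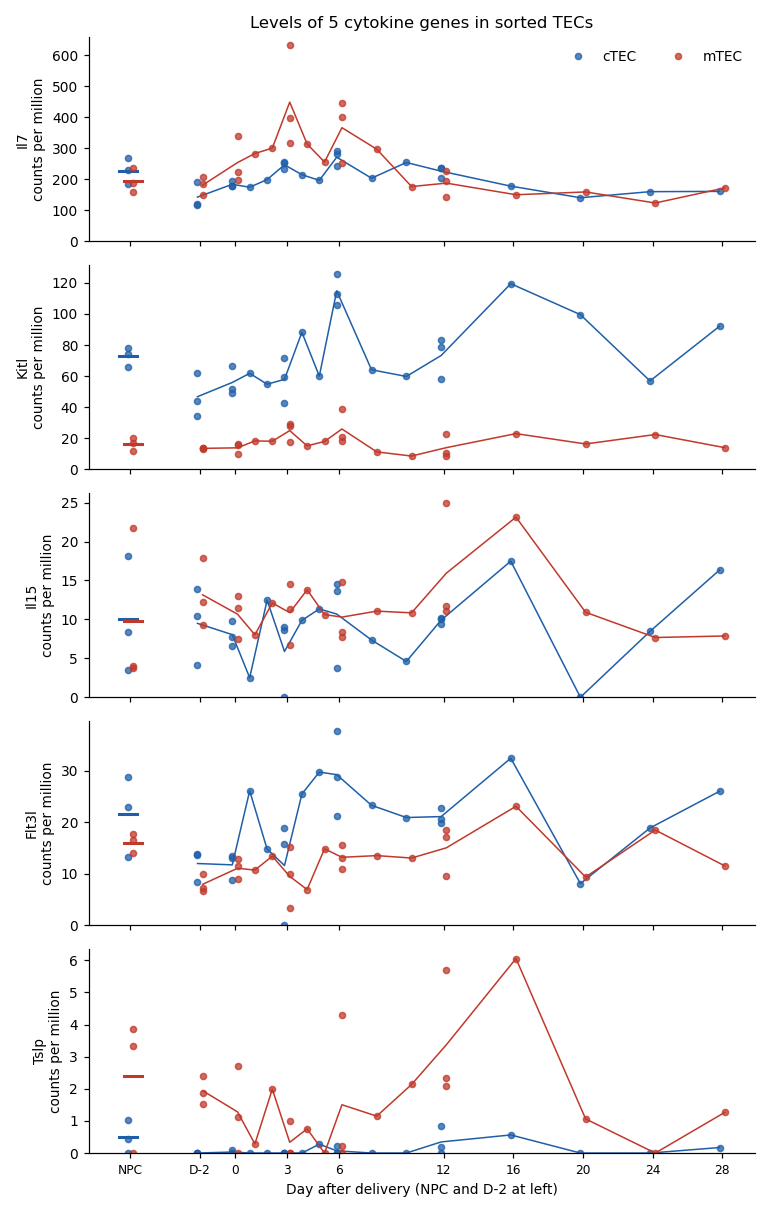
CPM (y axis, linear, from 0) of the 5 genes by day after delivery (x axis), with NPC and D-2 at the left. Points are samples, cTECs in blue and mTECs in red; lines join the means of the time points, 10 of which are single samples, and short bars mark the NPC means. *Kitl* in cTECs lies above *Kitl* in mTECs at each time point, and the highest *Il7* sample is an mTEC sample at D3 with 632 CPM.

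Of the replicated time points in cTECs, *Il7* was lowest on average at D-2 and highest at D6. The 3 NPC samples had 98.0, 122 and 87.0 FPKM, and the 3 samples at D-2 had 53.9, 53.5 and 83.0. The D-2 samples were all below the NPC samples in FPKM, while in CPM the highest D-2 sample, 191, exceeded the lowest NPC sample, 187. In limma-voom the change was −0.69 ± 0.19 on the log2 scale (adjusted p = 0.19), and *Il7* was not called. At this comparison 0 of the 4 members tested were called, against 0.0947% of all 15845 genes tested. An unadjusted p under 0.05 was reached by 2 of the 4, *Il7* and *Kitl*, and by 8.36% of all genes, and neither the edgeR quasi-likelihood test nor DESeq2 called any.

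After parturition the FPKM of *Il7* in cTECs was 89.5, 77.9 and 80.8 at D0, then 113, 119 and 103 at D3. It was 128, 125 and 109 at D6 and 107, 90.0 and 106 at D12. All samples at D3, D6 and D12 were above all 3 at D-2, as in 7.3%, 15.8% and 15.9% of all genes in CPM, whereas D0 and D-2 overlapped. Relative to D-2, the limma-voom value was 0.37 ± 0.18 at D0 (log2 fold change, adjusted p = 1). It was 0.76 ± 0.19 at D3 (adjusted p = 0.088), 0.95 ± 0.18 at D6 (adjusted p = 0.0042) and 0.73 ± 0.18 at D12 (adjusted p = 0.039). At D6 the adjusted p passed the threshold and the fold, 1.93, did not, so *Il7* was not called. It was called without D-2 replicate 4 (log2 fold change 1.16, adjusted p = 0.0019, limma-voom), without D6 replicate 5 (1.04, adjusted p = 0.0035) and without the filter on low FPKM (1.02, adjusted p = 0.0055). The edgeR quasi-likelihood test gave 0.89 (adjusted p = 0.0113), which missed both thresholds. Of the 13 alternatives that leave out no single replicate, 1 called *Il7*, and the adjusted p ranged from 0.000658 to 0.0339. With 1 replicate left out, the limma-voom adjusted p ranged from 0.00189 to 0.0482. At D0, D3 and D12 limma-voom, edgeR and DESeq2 called 0 of 4 members, where limma-voom called 0%, 0.114% and 0.77% of all genes. An unadjusted p under 0.05 was reached by 0, 1 (*Il7*) and 2 members (*Il7* and *Kitl*), against 3.93%, 18.9% and 12.3% of all genes. The NPC and D12 means were 102 ± 17.9 and 101 FPKM with overlapping samples, and for D12 against NPC none of the 4 members was called by the 3 tools or had an unadjusted p under 0.05, against 0% and 6.61% of all genes in limma-voom.

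In mTECs *Il7* had its highest means at D3 and D6, whose samples overlapped. The FPKM was 76.3, 104 and 87.3 in NPC, 88.9, 67.3 and 83.5 at D-2, and 90.0, 97.0 and 155 at D0. It was 271, 176 and 144 at D3, the first from the library with 12% of steadily expressed genes at 0, then 116, 202 and 183 at D6, and 100, 66.0 and 79.9 at D12. All 3 samples at D3 and all 3 at D6 lay above all 3 at D-2, as in 6.92% and 12.9% of all genes in CPM, and NPC and D-2 overlapped. Limma-voom gave −0.08 ± 0.27 on the log2 scale for D-2 against NPC (adjusted p = 0.92). From D-2 to D3 it was 1.11 (standard error 0.27, adjusted p = 0.044), which misses the threshold. Without the 5 libraries with most genes at 0, among them 2 of the 3 at D3, it was 0.82 (adjusted p = 0.51), and DESeq2 called it, with 1.24 (adjusted p = 0.0022). From D-2 to D6 it was 0.91 (standard error 0.27, adjusted p = 0.2), and with sample quality weights 1.03, which was called (adjusted p = 0.00081). Limma-voom and edgeR called 0 of 5 members at D3 and at D6, where limma-voom called 0.0113% of 17743 genes each time, and DESeq2 called *Il7* at D3. An unadjusted p under 0.05 was reached by 1 member at D3 (*Il7*) and 2 at D6 (*Il7* and *Kitl*), against 15.3% and 7.55% of all genes. For D0 and D12 against D-2 and D12 against NPC, the 3 tools called 0 of 5 members, and limma-voom called 0%, 0.49% and 0% of all genes. There an unadjusted p under 0.05 was reached by 0, 0 and 1 members (*Il15*), against 6.4%, 15.5% and 11.9% of all genes.

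*Il7* was lower in the late than in the early phase in both cell types. In cTECs the single samples at D16, D20, D24 and D28 had 82.0, 59.1, 73.1 and 74.9 FPKM, against a range of 77.9 to 128 with a median of 98.5 over the 18 early samples. In mTECs they had 69.7, 71.5, 57.9 and 77.3, against 66.0 to 271 with a median of 129. Of the late samples, 3 in cTECs and 1 in mTECs were below every early sample. The limma-voom log2 fold change was −0.56 in cTECs (standard error 0.12, adjusted p = 0.0063) and −0.93 in mTECs (0.24, adjusted p = 0.041). Neither reached a fold-change of 2, and 0 of 4 members were called in cTECs and 0 of 5 in mTECs, where the shares of all genes called were 1.41% and 0.062%. *Il7* was the 1 member with an unadjusted p under 0.05 in each, against 27.2% and 20% of all genes, edgeR called none, and DESeq2 called *Il7* in mTECs (−1.01, adjusted p = 0.0095). A two-sided exact permutation test of mean log2(FPKM + 0.5) over the 7315 splits gave differences of −0.47 in cTECs (p = 0.00041, adjusted p = 0.0037 over 9 tests) and −0.87 in mTECs (p = 0.0037, adjusted p = 0.017). With D12 counted as late, the cTEC value was −0.29 (limma-voom, adjusted p = 0.32).

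Other transcripts changed as well, some in the direction of *Il7* and some opposite to it. In bulk samples, fewer cells of a type and less RNA per cell cannot be told apart. In cTECs the summed FPKM of the 10 cTEC markers, all detected in every sample, lay between 1201 and 2141 before delivery at D-2, between 10980 and 12250 at D6 and between 3700 and 10640 in the late samples. It lay between 4610 and 7978 in NPC and between 10400 and 11850 at D12, where the *Il7* means were 102 and 101 FPKM. The 20 thymocyte markers summed to between 40.2 and 42.4 FPKM at D-2 and between 110 and 137 at D6 in cTECs, with 12 and 19 of 20 detected in every sample. The 10 mTEC markers were lower at D6 than at D-2 in cTECs, without overlap, at 3679 to 4286 against 5823 to 8133 FPKM, and 1 of them, *Ccl21a*, was called. The 10 fibroblast markers summed in cTECs to between 79.5 and 362.3 FPKM in the early samples and between 312.7 and 691 in the late ones, and 1 of them, *Dcn*, was called higher late. In mTECs the 10 cTEC markers summed to 623.8 to 1249 FPKM at D-2, 2007 to 2842 at D3 and 2281 to 4724 at D6. Their part in the *Il7* values was not tested.

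*Kitl* was called higher at D6 than at D-2 in cTECs. Its CPM was 66.0, 74.5 and 78.0 in NPC, 62.0, 43.8 and 34.5 at D-2, and 66.8, 51.6 and 49.4 at D0. It was 42.7, 59.6 and 71.5 at D3, 126, 106 and 113 at D6, and 78.5, 83.5 and 57.9 at D12. The lowest D6 sample was above the highest sample of each other replicated time point, while the orders of D-2, D0 and D3 and of NPC and D12 rest on overlapping samples. From D-2 to D6 the limma-voom log2 fold change was 1.32 (standard error 0.22, adjusted p = 0.0017), a 2.49-fold rise. *Kitl* was the 1 member called of 4 tested, where 1.58% of 15845 genes were called. In CPM, 3 of the 4 members (*Kitl*, *Il7* and *Flt3l*) had all D6 samples above all D-2 samples, as did 15.8% of all genes tested.

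The *Kitl* call depended on the fit, the filter and the samples used. The FPKM of *Kitl* in cTECs was 40.9 to 44.8 at D6 and 13.85 to 29.9 at D-2. The edgeR quasi-likelihood test gave 1.26 (adjusted p = 0.0029) and DESeq2 1.21 (adjusted p = 4.7e-05). Limma-trend on log2(FPKM + 0.5), which differs from limma-voom in method as well as scale, gave 1.16 (adjusted p = 0.26), and *Kitl* was not called. Nor was it called with no filter on low FPKM (1.31, adjusted p = 0.018) or in a fit to the samples of the 2 time points alone (1.31, adjusted p = 0.0102). It was also lost without D-2 replicate 3 (1.28, limma-voom, adjusted p = 0.024) and without D-2 replicate 4 (1.14, adjusted p = 0.0126), and over the 13 alternatives that leave out no single replicate the adjusted p ranged from 4.66e-05 to 0.279, with values from 1.16 to 1.39. The 10 fibroblast markers, of which *Mfap5* was at 0 in both groups, summed to 297.3 to 404.6 FPKM at D-2 and 113 to 162 at D6, opposite to *Kitl*, while cTEC and thymocyte markers were higher and mTEC markers lower at D6 as given above. Whether they contribute was not tested.

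At the other time points *Kitl* was not called. From NPC to D-2 in cTECs all 3 D-2 samples were below all 3 NPC samples in CPM, as in 8.3% of genes, and the limma-voom log2 fold change was −0.65 (standard error 0.24, adjusted p = 0.45). The FPKM of the same samples, 12.7, 25.3 and 25.1 in NPC and 29.9, 15.7 and 13.8 at D-2, overlapped. Set against D-2, limma-voom gave 0.25 at D3 (standard error 0.27, adjusted p = 0.65) and 0.64 at D12 (0.23, adjusted p = 0.2). The late samples had 120, 99.6, 56.9 and 92.2 CPM at D16, D20, D24 and D28, within the early range of 42.7 to 126, and limma-voom gave 0.25 on the log2 scale with a standard error of 0.20 (adjusted p = 0.46).

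In mTECs *Kitl* had 17.0, 11.8 and 20.4 CPM in NPC, 13.7, 13.5 and 13.3 at D-2, and 18.4, 38.5 and 21.1 at D6. At D3 it had 28.9, 17.8 and 28.2 CPM. All samples at D3 and at D6 lay above those at D-2 in CPM, as in 6.92% and 12.9% of all genes, and D6 replicate 2 was the highest of all 28. The limma-voom log2 fold change from D-2 was 0.76 at D3 (standard error 0.43, adjusted p = 0.42) and 0.90 at D6 (0.39, adjusted p = 0.56). The change from D-2 to D6 was larger in cTECs by 0.41 on the log2 scale, with a standard error of 0.45 and a 95% interval from −0.47 to 1.29 (adjusted p = 1), so a difference between the cell types was not shown, and the interval holds differences of over 2-fold. For this difference and for that in D-2 against NPC, the 3 tools called 0 of 5 members and none had an unadjusted p under 0.05, against 0.00544% and 0% of all genes called and 4.91% and 8.05% with such a p in limma-voom.

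**Figure D2:**
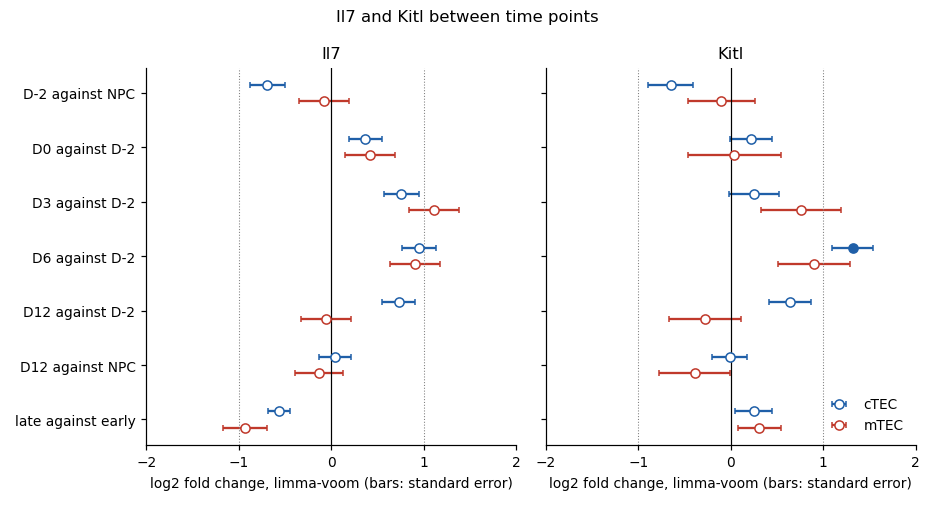
Log2 fold changes of *Il7* (left) and *Kitl* (right) from limma-voom for 7 comparisons between time points, cTECs in blue and mTECs in red, with bars of 1 standard error. Filled points were called, open points were not, and dotted lines mark a fold-change of 2; the filled point is *Kitl* in cTECs at D6 against D-2, at 1.32.

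Between the cell types, *Kitl* was the member with the clearest difference. In each of the 26 pairs of samples that share a time point and a number, *Kitl* was higher in cTECs, though the labels do not say that a pair comes from 1 mouse. At each of the 6 replicated time points all 3 cTEC samples were above all 3 mTEC samples in CPM, as in 9.72% of all genes in NPC and, from D-2 onward, in 13.8%, 13.3%, 7.1%, 16.9% and 18.3%. In FPKM the cell types overlapped at D0 and at D12. There mTEC D0 replicate 2 had 18.85 FPKM and mTEC D12 replicate 1 had 21.54, above the lowest cTEC samples, 17.84 and 18.75. Averaged over the 6 time points, the limma-voom log2 difference of mTECs from cTECs was −1.99 (standard error 0.14, adjusted p = 1.5e-12), or 3.96-fold higher in cTECs. It was −2.29 in NPC, −1.72 at D-2, −1.91 at D0, −2.13 at D6 and −2.67 at D12, each called, and −1.20 at D3 (standard error 0.40, adjusted p = 0.075), which was not. At D3 limma-voom and edgeR called 0 of 5 members and DESeq2 called *Kitl* (−1.17, adjusted p = 0.0058), and 3 members (*Kitl*, *Il15* and *Il7*) had an unadjusted p under 0.05, against 20.9% of all genes. Over the 6 time points together 2 of 5 members, *Kitl* and *Tslp*, were called, where 16.8% of 18394 genes were, and *Tslp* passed the filter on low FPKM through mTECs alone. Single time points had a background from 1.49% at D3 and 1.67% at D-2 to 2.74% at D0, 4.19% at D6, 5.12% in NPC and 9.54% at D12.

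The *Kitl* difference kept its call over the 6 time points under every alternative run and with any 1 sample left out, from −2.09 to −1.87. On the scale of log2(FPKM + 0.5), limma-trend called *Kitl* at none of the single time points, with values from −2.18 to −1.51 at the 5 that limma-voom called. In limma-voom the call at D-2 was lost without mTEC D-2 replicate 4 (−1.70, adjusted p = 0.14), cTEC D-2 replicate 1 (−1.55, adjusted p = 0.026) or cTEC D-2 replicate 3 (−1.74, adjusted p = 0.0104), and that at D0 without any 1 of the 3 mTEC samples (adjusted p from 0.0139 to 0.0306, limma-voom) or without the 5 libraries with most genes at 0 (−1.97, adjusted p = 0.0113). Fibroblast markers, which can mark another source of *Kitl*, summed to between 79.5 and 691 FPKM in cTECs and between 100 and 192.4 in mTECs, with all 10 detected in at least 1 sample of each cell type. At D6, where *Kitl* differed 4.37-fold, they summed to 113 to 162 in cTECs and 119 to 168.3 in mTECs, ranges that overlap, and at D3 the ranges, 79.5 to 241 and 100 to 132.9, overlapped as well. At the other replicated time points the cTEC sums lay wholly above those of mTECs, in the direction of *Kitl*, with 382 to 518.6 against 137.8 to 192.4 FPKM in NPC, 297.3 to 404.6 against 147.8 to 181.6 at D-2, 204.8 to 303.2 against 133.3 to 165.1 at D0 and 248.9 to 362.3 against 125.8 to 159 at D12. Their part in the *Kitl* difference was not tested.

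**Figure D3:**
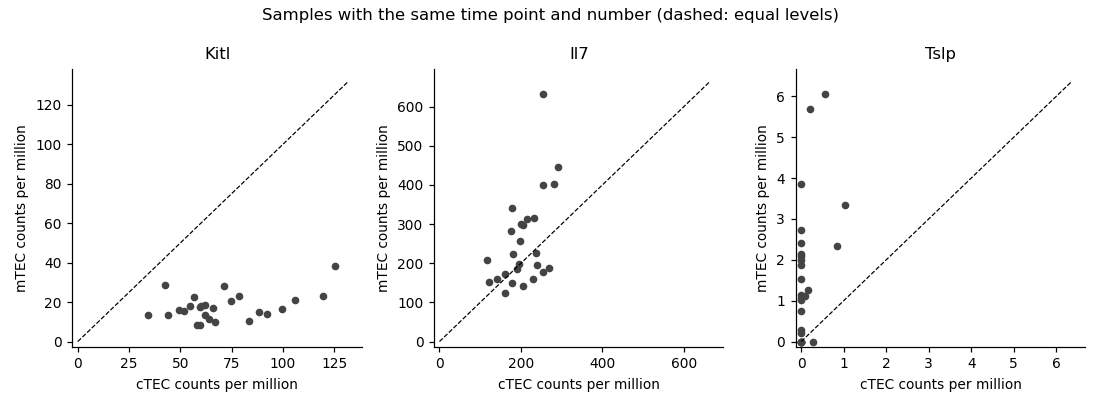
CPM in mTECs (y axis) against cTECs (x axis) for *Kitl*, *Il7* and *Tslp* in the 26 pairs of samples that share a time point and a number; the dashed line marks equal levels and each point is 1 pair. For *Kitl* all 26 points lie below the line, for *Il7* 17 lie above it, and for *Tslp* 20 lie above it and 5 pairs are equal.

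*Il7* was not called between the cell types. It was higher in mTECs in 17 of the 26 pairs, and the limma-voom log2 difference over the 6 time points was 0.23 (standard error 0.10, adjusted p = 0.061), with a 95% interval from 0.04 to 0.42. At D0 and at D3 all mTEC samples were above all cTEC samples in CPM, as in 12.3% and 7.76% of genes, and at D3 the log2 difference was 0.77 (standard error 0.25, adjusted p = 0.065). Over the 12 alternatives that leave out no single replicate, the D3 value ranged from 0.39 to 0.91 (adjusted p from 0.00458 to 0.75). Here cTEC D3 replicate 2 and mTEC D3 replicates 1 and 2 are among the 5 libraries with most genes at 0. The change from NPC to D-2 was lower in cTECs than in mTECs by a log2 difference of −0.65 (standard error 0.36, adjusted p = 0.69), which did not pass the test.

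Of the replicated time points in cTECs, *Flt3l* was highest on average at D6 and lowest at D-2, D0 and D3, which overlapped, and it was called in no comparison. Its CPM was 13.3, 22.9 and 28.7 in NPC, 8.43, 13.8 and 13.7 at D-2, and 28.8, 21.2 and 37.9 at D6. It was 13.5, 8.74 and 13.0 at D0, 19.0, 0 and 15.8 at D3, and 22.9, 20.7 and 19.8 at D12. NPC and D-2 overlapped, and all samples at D6 and at D12 were above all at D-2, as in 15.8% and 15.9% of all genes in CPM. The D3 value of 0 came from cTEC D3 replicate 2, in which 17.7% of steadily expressed genes were at 0 and a count of 0 allows up to 0.379 CPM. In limma-voom the log2 fold change of D-2 against NPC was −0.74 (standard error 0.88, adjusted p = 0.92), and relative to D-2 it was 1.08 at D6 (0.76, adjusted p = 0.48) and 0.84 at D12 (0.76, adjusted p = 0.79). At D3 it was −2.34 (standard error 1.36, adjusted p = 0.34) and turned to 0.51 without replicate 2 (adjusted p = 0.95).

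In mTECs *Flt3l* had 16.5, 13.9 and 17.6 CPM in NPC and 10.01, 6.65 and 7.20 at D-2. The D-2 samples were all below the NPC samples, as in 7.63% of genes, and limma-voom gave −1.04 ± 0.42 on the log2 scale (adjusted p = 0.21). In this comparison 0 of 5 members were called against a background of 0.569%, 2 (*Flt3l* and *Il15*) had an unadjusted p under 0.05, and neither edgeR nor DESeq2 called any, while 16.8% of all genes had such a p. At D6 it had 10.9, 15.5 and 13.2 CPM, all above the D-2 samples, as in 12.9% of all genes, while in FPKM the 2 groups overlapped. From D-2 to D6 limma-voom gave 0.78 ± 0.55 on the log2 scale (adjusted p = 0.89). At D3 and D12 the CPM ranged from 3.25 to 18.5. *Flt3l* was higher in cTECs in 21 of the 26 pairs, and the log2 difference of mTECs from cTECs was −0.22 over the 6 time points (standard error 0.32, adjusted p = 0.63) and −0.96 at D12 (0.43, adjusted p = 0.12). The first value depended on the cTEC samples at D3, with 0.03 without replicate 1 (adjusted p = 0.95), −0.72 without replicate 2, the library in which *Flt3l* was at 0 (adjusted p = 0.0033, below a fold-change of 2), and −0.01 without replicate 3 (adjusted p = 0.98), all from limma-voom. Without the 5 libraries with most genes at 0 the D12 value was −1.01 and was called (adjusted p = 0.0041).

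*Il15* had few reads and no call. Its expected count was from 0 to 667 per cTEC sample and from 33 to 1315 per mTEC sample. In CPM the cTEC samples had 8.44, 3.47 and 18.2 in NPC, 4.12, 13.9 and 10.4 at D-2, 3.77, 14.6 and 13.7 at D6, and 10.2, 9.43 and 10.1 at D12. The groups overlapped throughout. *Il15* was at 0 in cTEC D3 replicate 2 and in cTEC D20, the cTEC libraries with most genes at 0. Over its 7 comparisons within cTECs the lowest adjusted p was 0.34.

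In mTECs the CPM of *Il15* was 3.98, 3.76 and 21.8 in NPC and 9.31, 17.9 and 12.3 at D-2. Both groups overlapped through NPC replicate 4. Limma-voom gave 1.30 ± 0.53 on the log2 scale (adjusted p = 0.23), edgeR 0.49 and DESeq2 0.52 (adjusted p = 1 in both), while limma-trend on log2(FPKM + 0.5) gave −0.48 (adjusted p = 0.94). The FPKM of the same samples was 11.4, 10.8 and 31.4 in NPC and 7.97, 16.2 and 10.7 at D-2, with transcript lengths from 430 to 776 bases in NPC and from 1183 to 1251 at D-2. Between the cell types the log2 difference over the 6 time points was 0.67 (standard error 0.36, adjusted p = 0.14), and *Il15* was higher in mTECs in 18 of 26 pairs.

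Most *Tslp* counts were in mTECs. The 28 cTEC samples held 69 *Tslp* counts in all and the 28 mTEC samples 1311, which is 0.115 and 1.83 CPM over the pooled totals. In cTECs it was at 0 in every sample at D-2 and at D3, and its mean of 0.13 FPKM kept it out of the tests between time points of this cell type. At D-2 the pooled level in mTECs, 1.71 CPM from 117 counts, was at least 16.5-fold higher than the limit set by 3 counts over the 3 cTEC samples. The mTEC samples had 2.40, 1.89 and 1.53 CPM at D-2 and 5.69, 2.10 and 2.33 at D12, all above those of cTECs at the same time points, as in 18.1% and 20.8% of all genes. They overlapped cTECs in NPC, with 3.35, 0 and 3.86 against 1.03, 0 and 0.447 CPM.

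The limma-voom log2 difference of *Tslp* over the 6 time points was 2.98 (standard error 0.69, adjusted p = 0.00078), and it was called under all 12 alternatives that leave out no single replicate, with values from 1.41 to 4.96. *Tslp* entered this test through its mean in mTECs, the cell type in which it was higher, so the filter favoured this direction. At D-2 alone it was 5.18 (standard error 1.59, adjusted p = 0.052). Within mTECs *Tslp* varied widely, with 4.31, 0.206 and 0 CPM at D6 and a highest value of 6.06 at D16, and it was at 0 in 7 of 28 samples. At D3 all 3 mTEC samples, at 0, 0 and 1.01 CPM, lay below all at D-2, as in 12% of genes, and limma-voom gave −3.54 ± 1.87 on the log2 scale (adjusted p = 0.38). Both samples at 0 are among the 5 libraries with most genes at 0. The 12 macrophage and dendritic cell markers, another possible source of transcripts, summed to 16.2 to 215 FPKM in mTECs and 4.48 to 44.8 in cTECs. At D-2 they summed to 57.3 to 99.8 in mTECs, with *Itgax* and *Fcgr1* at 0 in all 3 samples, and 13.1 to 24.3 in cTECs. Their part in the *Tslp* difference was not tested.

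FPKM and CPM told a different order for genes whose transcripts differ in length. The weighted transcript length that RSEM gives each gene in each sample was from 2169 to 2530 bases for *Il7*, from 738 to 5648 for *Kitl* and from 292 to 1403 for *Il15*. The annotated *Kitl* transcripts Kitl-202 and Kitl-201 have 5648 and 1260 bases, and the shortest of the 6 has 372. For *Kitl* the highest FPKM, 91.1, was in cTEC D3 replicate 2, where the length was 738 bases and the CPM 59.6. The FPKM of the other samples at D3 were 14.3 and 41.8, at 42.7 and 71.5 CPM. At D12 in mTECs *Kitl* had 21.5 FPKM at 23.1 CPM in one sample and 2.31 at 10.6 in another. The length of *Tslp* was 1133 bases in all samples.

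**Figure D4:**
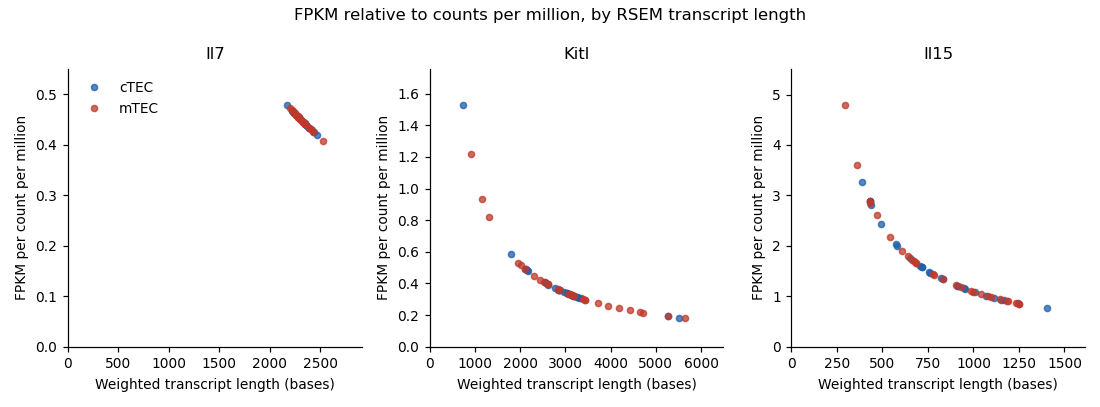
FPKM divided by CPM (y axis, from 0) against the weighted transcript length in bases (x axis, from 0) for *Il7*, *Kitl* and *Il15*, cTECs in blue and mTECs in red, 1 point per sample with counts. The points of *Il7* lie close together, between 2169 and 2530 bases, while those of *Kitl* and *Il15* spread along a falling curve, so equal counts gave FPKM values several-fold apart.

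Of the 7 listed receptor genes of these cytokines, 4 passed the filter in cTECs and 7 in mTECs. *Il15ra*, which presents IL-15 to other cells, was the highest, with 44.1 ± 16.5 FPKM in cTECs and 52.4 ± 16.1 in mTECs (n = 28 each). *Crlf2*, the TSLP receptor chain, had 11.8 ± 5.15 and 8.94 ± 5.04 FPKM. The common gamma chain *Il2rg* had 8.95 ± 5.56 in cTECs and 38.0 ± 27.6 in mTECs, and *Kit*, the receptor of KIT ligand, 4.15 ± 3.66 and 10.5 ± 7.67. The remaining 3 averaged 0.263 and 0.765 (*Il7r*), 0.214 and 1.34 (*Il2rb*) and 0.122 and 1.02 FPKM (*Flt3*). Between time points, none of the 4 tested in cTECs and none of the 7 tested in mTECs was called. The shares of all genes called in these comparisons were 0% to 1.58% in cTECs and 0% to 0.569% in mTECs. Between the cell types *Kit* (limma-voom log2 difference 2.28, adjusted p = 9e-07) and *Il2rg* (2.09, adjusted p = 1.9e-05) were called higher in mTECs over the 6 time points, of the 4 that passed in both cell types, where 16.8% of all genes were called. The other 3 were tested through their mTEC means alone and could hardly have come out lower there, and of these *Flt3* was called (3.35, adjusted p = 0.00037, limma-voom). Dendritic cells carry *Flt3* and other leukocytes *Il2rg*, and the macrophage and dendritic cell markers had higher sums in mTECs at D-2, as given above. Their part in the receptor values was not tested.

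The 12 listed genes of JAK-STAT signalling were all tested in both cell types. The feedback inhibitor *Socs3* had a mean of 430 ± 184 FPKM in cTECs and 391.6 ± 171 in mTECs. Between time points the 1 call was *Socs2*, an inhibitor of growth hormone and cytokine signalling, which rose by 1.54 on the log2 scale in mTECs between NPC and D-2 (adjusted p = 0.0046, limma-voom). In that comparison 0.569% of all genes tested were called. Between the cell types *Stat5a*, a transcription factor downstream of the IL-7 receptor, was higher in mTECs by 2.13 (adjusted p = 2.4e-12) and *Socs2* by 2.54 (adjusted p = 2.9e-08), 2 of 12 genes against 16.8% of all genes tested, a share near the background, with a median of 0.08 against 0.03 over all genes.

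Of 24 other cytokines and growth factors of the thymic stroma, 16 were tested in cTECs and 21 in mTECs. From D-2 to D6 in cTECs 1 of 16 was called, where 1.58% of all genes tested were. It was the alarmin *Il33*, which fell by 1.39 on the log2 scale (adjusted p = 0.0029, limma-voom), opposite in sign to *Kitl*. None was called between D-2 and D6 in mTECs, where 0.0113% of all genes were. Over the 6 time points 7 of 21 were called higher in mTECs and 3 lower, where 16.8% of all genes were called in either direction. The 21 are those tested in mTECs, of which 16 were tested in cTECs too. Those that passed the filter in mTECs alone, *Fgf7* among them, could hardly have come out lower there. The filter thus favoured the count of 7 over that of 3, and no direction was read from these counts. Higher were *Fgf21* (log2 difference 4.99), *Il13* (3.47), *Il23a* (3.08), *Il12a* (2.46), *Fgf7* (2.36), *Ebi3* (2.32) and *Igf1* (1.48). Lower were *Bmp4* (−3.25), *Il33* (−2.37) and *Il34* (−1.90). *Kitl* was thus among the factors higher in the cTEC samples, with *Bmp4*, *Il33* and *Il34*. As given above, fibroblast marker sums were higher in cTECs than in mTECs in NPC and at D-2, D0 and D12, and overlapped at D3 and D6. In cTECs they were lower at D6 than at D-2, in the direction of *Il33*. The part of fibroblast transcripts in these values was not tested.

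Across samples, no pair of the cytokine genes was correlated past the test. Of 16 pairs within a cell type, Pearson's r of log2(FPKM + 0.5) over 28 samples reached an adjusted permutation p under 0.05 in 0, and so did Spearman's rho. The lowest adjusted p for r was shared by 2 pairs. For *Kitl* and *Il15* in cTECs r was −0.50 (permutation p = 0.0075, adjusted p = 0.076) and rho was −0.12 (permutation p = 0.54, adjusted p = 0.61). There r was −0.26 without the 2 samples farthest on *Kitl*, and −0.01 on log2 CPM. For *Il7* and *Tslp* in mTECs r was −0.48 (permutation p = 0.0095, adjusted p = 0.076) and rho was −0.46 (permutation p = 0.016, adjusted p = 0.12). There r was −0.38 without the 2 farthest, and −0.49 on log2 CPM. The largest r, 0.56, was that of *Il15* and *Flt3l* in cTECs (permutation p = 0.0295, adjusted p = 0.118). It was 0.69 on log2 CPM and −0.09 without the 2 samples farthest on *Il15*, and rho was 0.13. Between cTEC and mTEC samples of the same time point and number, *Il7* had r = 0.54 (permutation p = 0.0039, adjusted p = 0.016 over 4 genes) and rho = 0.54 (permutation p = 0.0049, adjusted p = 0.020) over 26 pairs, in which both samples come from 1 time point and are not stated to be from 1 mouse. Without the 2 pairs farthest on the cTEC level r was 0.53. For *Flt3l* r was 0.44 (permutation p = 0.029, adjusted p = 0.058), rho was 0.25 (permutation p = 0.23, adjusted p = 0.37), and r was 0.18 without those 2 pairs.

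The genes whose levels most resembled those of *Il7* over the 28 cTEC samples, among 10068 with a mean of at least 5 FPKM, were *Snx30* (r = 0.87), *Fgf14* (0.86) and *B3galt5* (0.83), as a description. In mTECs, among 10502 genes, they were *Sh2d4b* (0.89), *Synm* (0.89) and *Slco2b1* (0.89). For *Kitl* they were *Frem2* (0.80), *1600020E01Rik* (0.80) and *Ocrl* (0.79) in cTECs and *Nol11* (0.68), *Stam2* (0.67) and *Calu* (0.66) in mTECs. In mTECs *Tslp* was most like *Nfkbid* (0.75), *Tex30* (0.73) and *Gm13237* (0.73), *Flt3l* most like *Nasp* (0.76), *Spag5* (0.75) and *Zzef1* (0.74), and *Il15* most like *Snx25* (0.79), *C2* (0.76) and *Ino80c* (0.76). In cTECs *Il15* was most like *Scp2* (0.94), *Mthfsl* (0.93) and *Tmem29* (0.91) and *Flt3l* most like *Magoh* (0.93), *Rnf2* (0.93) and *1300002E11Rik* (0.93), and these values include the libraries in which the 2 cytokine genes were at 0.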

How the data were processed

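Adapters and low-quality ends were trimmed with Trimmomatic 0.35, and reads were aligned to GRCm38 with STAR 2.5.1b and quantified with RSEM 1.2.28 by the authors. The annotation release is not given in the sources used here, and symbols and coordinates come from GENCODE M21, which matched 50376 of 50600 identifiers. The deposited expected counts are RSEM estimates per gene, not normalized (91.4% to 98.0% whole within 0.005 counts). The deposited TPM and FPKM values are scaled by transcript length and depth by RSEM. Columns of transcript length (weighted and effective, in bases) and of the posterior count and its SD were also deposited.

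Expected counts were rounded and fitted with limma 3.58.1 (voom, TMM from edgeR 4.0.16, R 4.3.3), with 1 mean per time point over the 28 samples of a cell type, over early and late samples, or over all 56 samples by cell type and time point. Genes whose FPKM averaged 0.5 or more in the cell type, or in either of them for comparisons between them, were tested and adjusted by the Benjamini-Hochberg method. The fits were tested on simulated data. Permutation tests used 100000 resamples, or all splits where called exact. Alternatives were the edgeR quasi-likelihood test, DESeq2 1.42.0, limma-trend on FPKM or TPM, other scalings and filters, sample quality weights, a replicate block and leaving out replicates. The members, gene lists and tests were chosen with earlier results of these data known. Genes named besides the 5 were those of the lists and, for each member, the 3 most correlated genes. Further steps ran in Python 3.11.15 (SciPy 1.17.1, NumPy 2.4.6, pandas 2.3.3). Floors cover counting error only, and the intervals of limma-voom differences rest on the spread between samples.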

Additional observations from a re-analysis of the deposited data

How the results depend on the processing

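Of the 547 values of single genes under alternatives that leave out no single replicate, 512 kept their direction and side of the threshold, 21 lost a call, 8 gained one and 6 changed sign. Those that changed sign were *Il15* for D-2 against NPC in mTECs (limma-trend on log2(FPKM + 0.5) −0.48, on log2(FPKM + 0.1) −0.49 and on log2(TPM + 0.5) −0.36), *Il7* for the same comparison (0.03 with sample quality weights) and *Flt3l* for D3 against D-2 in cTECs (0.27 with quality weights and 0.51 without the 5 libraries with most genes at 0, a set chosen after seeing the data). The *Il15* samples differed in transcript length, which the FPKM and TPM scales divide by, but limma-trend differs from limma-voom in method as well as scale. The cause of the sign change was not tested for any of these genes. With 1 replicate left out, *Il7* for D-2 against NPC in mTECs ranged from −0.20 to 0.10, *Flt3l* at D3 in cTECs from −3.71 to 0.51, the *Kitl* difference between cell types in D6 against D-2 from −0.03 to 0.82, and *Flt3l* between the cell types from −0.72 to 0.03.

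The number of members called moved in 28 of 315 alternatives. It went from 1 to 0 under all 3 limma-trend scales for D6 against D-2 in cTECs and between the cell types in NPC and at D-2, D0, D6 and D12, from 1 to 0 for D6 in cTECs with the samples of the 2 time points alone, and from 1 to 0 at D0 without the 5 libraries. It went from 0 to 1 with DESeq2 for D3 against D-2 in mTECs, late against early in mTECs and mTECs against cTECs at D3, with an adjusted p of 0.05 for D3 in mTECs, and with quality weights for D6 in mTECs. It went from 1 to 2 with quality weights at D-2 and D12 and without the 5 libraries at D12. With 1 replicate left out it was 0 to 2 for D6 in cTECs and 0 to 1 between the cell types at D-2 and at D0. The cause was not tested.

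Same-numbered cTEC and mTEC samples deviated together with correlations from −0.138 to 0.135 over 16 pairs, 2 of them over 0.1, so the main fits did not take the numbers as pairs, and the pairs counted and correlated above share a time point and a number and nothing more that is stated. A replicate block changed no call of a reported result, and with it *Kitl* at D6 in cTECs was 1.28 (adjusted p = 0.00183, limma-voom). Depth limits *Tslp*, with 69 counts over all cTEC samples.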
